A study of Mus musculus with 8 samples.

Results

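The P2Y receptor genes P2ry12, P2ry13 and P2ry14 and the receptor gene Gpr171 lie inside the introns of Med12l, and their levels were followed here, mouse by mouse, in the hippocampus of mice that lack the potassium channel Kv10.1 and of wildtype mice. The genes were selected by their platform gene symbol and by their position in the RefSeq gene table of assembly GRCm38.p6, and the set was chosen with earlier results of these data in view. Of the 5 genes asked for, 4 have a probe set carrying their symbol, 1 each, among 20985 probe sets in all. The host Med12l has no probe set under its symbol and was not analysed here, so whether the nested genes move with or against their host could not be measured. Each of the 8 arrays was hybridised with hippocampal total RNA of 1 male mouse, killed at 8 weeks of age. The knockout group held 4 Kv10.1 -/- mice and the control group 4 Kv10.1 +/+ wildtype mice. The sources used here do not give how the Kcnh1 gene was disrupted, the strain, or whether the mice were littermates. Values are the deposited log2 levels, on which a difference of 1 is a doubling.

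P2ry12 and P2ry13 encode receptors for ADP. In the brain P2ry12 is a standard marker of resting microglia, whose processes it guides towards sites where ATP is released, and in platelets it is the target of clopidogrel. P2ry14 encodes a receptor for UDP-glucose and other UDP sugars, and Gpr171 a receptor activated by BigLEN, a peptide cut from the proSAAS precursor. All 4 receptors couple to inhibitory G proteins. Med12l is a relative of Med12, a subunit of the kinase module of Mediator, the complex that links transcription factors to RNA polymerase II. In a bulk sample such as this, fewer cells of a type and less RNA per cell cannot be told apart.

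The upstream sequences are shown because P2ry12, P2ry13 and P2ry14 lie inside the same host but have starts of their own, read on the strand opposite to Med12l. Each line holds the 250 bases before the annotated start, taken from RefSeq on GRCm38.p6, minus strand, 5′ to 3′. The windows are chr3:59262986-59263235 for P2ry12, chr3:59210883-59211132 for P2ry13 and chr3:59153493-59153742 for P2ry14, whose first of 4 annotated starts is shown. Capitals mark matches to GGAAGT, the core bound by ETS factors such as PU.1 of myeloid cells, or to TATAAA, searched on both strands.
P2ry12: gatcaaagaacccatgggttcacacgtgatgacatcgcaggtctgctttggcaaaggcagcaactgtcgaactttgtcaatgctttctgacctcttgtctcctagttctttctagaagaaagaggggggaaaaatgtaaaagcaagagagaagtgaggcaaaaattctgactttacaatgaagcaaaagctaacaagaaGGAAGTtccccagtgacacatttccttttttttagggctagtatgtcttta
P2ry13: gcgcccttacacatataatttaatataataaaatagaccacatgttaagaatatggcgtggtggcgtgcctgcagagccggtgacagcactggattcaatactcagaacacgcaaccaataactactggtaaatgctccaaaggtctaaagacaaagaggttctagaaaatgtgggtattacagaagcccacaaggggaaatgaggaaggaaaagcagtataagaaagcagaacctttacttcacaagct
P2ry14: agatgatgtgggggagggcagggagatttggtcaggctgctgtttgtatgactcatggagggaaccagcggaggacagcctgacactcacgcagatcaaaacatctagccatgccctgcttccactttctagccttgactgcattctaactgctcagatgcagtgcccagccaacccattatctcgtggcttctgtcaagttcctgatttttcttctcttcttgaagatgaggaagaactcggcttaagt
The P2ry12 window holds 1 GGAAGT, which begins 51 bases before the start. The P2ry13 window and the P2ry14 window shown hold neither motif. Among the other starts of P2ry14, the third has GGAAGT on the other strand, 14 bases before the start, and the fourth has TATAAA on the other strand, 118 bases before it. GGAAGT occurs in 19.7% of 32851 RefSeq windows of this length and TATAAA in 12.4%, so a match in a single window is a common event. The 3 sequences shown do not share these motifs, and whether the motifs bear on the levels was not tested. The levels of the genes over the mice are described next.

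P2ry14 varied most. Its level was 7.07, 8.13, 8.98 and 9.25 in knockout mice 1 to 4 and 6.92, 8.92, 8.92 and 9.22 in wildtype mice 1 to 4. Knockout 1 and wildtype 1 were the lowest, and the lowest and highest mice differed by 2.33 on the log2 scale, a 5.03-fold range. Only 6 of 20985 probe sets (0.0286%) had a larger standard deviation over the 8 mice than its 0.949.

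Gpr171 followed the same order at its low end. Its level was 6.69, 7.09, 7.72 and 7.90 in the knockout mice and 6.23, 7.89, 7.59 and 8.16 in the wildtype mice. Knockout 1 and wildtype 1 were again lowest, over a 3.81-fold range, and 36 probe sets (0.172%) had a larger standard deviation than its 0.673. P2ry13 read 8.82, 9.24, 9.68 and 9.77 in the knockout mice and 8.53, 9.34, 9.58 and 9.77 in the wildtype mice. Its range was 2.36-fold, with the same 2 mice lowest and with knockout 4 and wildtype 4 highest, and 143 probe sets (0.681%) were more variable.

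P2ry12, the best known microglial gene of the set, varied least. It read 7.36, 7.48, 7.52 and 7.92 in the knockout mice and 7.33, 7.55, 7.50 and 7.63 in the wildtype mice. Knockout 4 was highest and the same 2 mice were lowest, but the range was 1.51-fold, and 23.8% of all probe sets had a larger standard deviation than its 0.183. Among the other 6 mice the ranges were 1.36-fold for P2ry12, 1.44-fold for P2ry13, 2.17-fold for P2ry14 and 2.1-fold for Gpr171, so part of the spread remained when the 2 lowest mice were left out. Levels of different probe sets are not comparable with each other as amounts of RNA on these arrays. Where levels of different genes are set side by side below, they are array readings only. Without detection calls the lowest values could not be told from background.

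**Figure D1:**
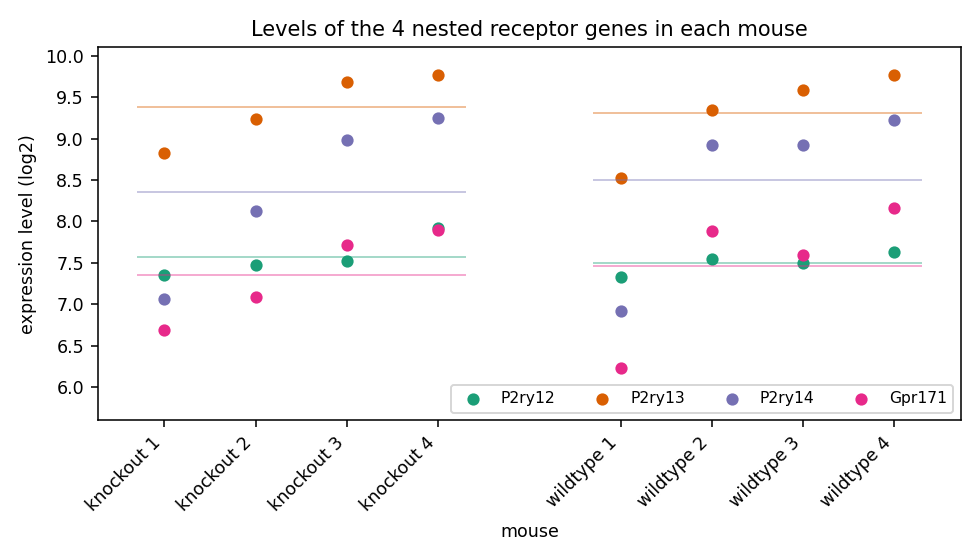
Level of each receptor gene (log2, vertical axis) in each of the 8 mice (horizontal axis). Points are single mice and horizontal lines are group means, and P2ry13, P2ry14 and Gpr171 are lowest in knockout 1 and wildtype 1 while P2ry12 spans 0.59.

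The nested genes moved in the same direction over the mice, P2ry12 less tightly than the others. Pearson r over 8 mice was 0.97 for P2ry13 with P2ry14, 0.97 for P2ry14 with Gpr171 and 0.94 for P2ry13 with Gpr171. Of all probe sets, 0.157% had an r at least as high with P2ry13 as P2ry14 had, 0.691% had one at least as high with P2ry13 as Gpr171 had, and 0.195% had one at least as high with P2ry14 as Gpr171 had. For P2ry12, r was 0.77 with P2ry13, 0.77 with P2ry14 and 0.74 with Gpr171, and 4.36% to 5.8% of all probe sets had an r with P2ry12 at least that high. Spearman's rho was between 0.92 and 0.99 for all 6 pairs. These are descriptions over arrays that share a normalization, and no p is given because the genes were proposed as a set with their values known.

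The 2 mice with the lowest values carried part of the relation. Over the other 6 mice, r was 0.86 for P2ry13 with P2ry14, 0.93 for P2ry14 with Gpr171 and 0.71 for P2ry13 with Gpr171. It was 0.60, 0.61 and 0.50 for P2ry12 with P2ry13, P2ry14 and Gpr171, values that 11.8% to 16.9% of all probe sets reached with P2ry12. The share of all probe sets with an r at least as high rose over these 6 mice to 2.15% for P2ry13 with P2ry14, 8.37% for P2ry13 with Gpr171 and 0.524% for P2ry14 with Gpr171. Per unit of P2ry14 on the log2 scale, P2ry12 moved by 0.15, P2ry13 by 0.47 and Gpr171 by 0.69, and over the other 6 mice by 0.25, 0.48 and 0.84. The pairs kept r between 0.77 and 0.98 once the genotype means were removed.

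None of the 4 genes differed between knockout and wildtype mice beyond the spread among mice. P2ry12 averaged 7.57 ± 0.243 (SD, n = 4) in knockout and 7.50 ± 0.127 (n = 4) in wildtype mice, a difference of 0.07 with a 95% interval of -0.20 to 0.33. P2ry13 averaged 9.38 ± 0.438 and 9.30 ± 0.546, a difference of 0.07 with an interval of -0.53 to 0.67. P2ry14 averaged 8.36 ± 0.982 and 8.49 ± 1.06, a difference of -0.14 with an interval of -1.36 to 1.08, and Gpr171 averaged 7.35 ± 0.561 and 7.47 ± 0.857, a difference of -0.12 with an interval of -0.99 to 0.75. The groups overlapped for all 4, against 2.16% of all probe sets whose groups did not overlap. The limma adjusted p over all probe sets was 0.997 for each, and 0 of 4 passed 0.05, as against 0.00477% of all probe sets, which is the single probe set of Kcnh1. Kcnh1 itself, the gene of the channel, averaged 8.35 ± 0.0624 in knockout and 9.34 ± 0.131 in wildtype mice, with no overlap and a limma adjusted p of 0.00319, as the labels say.

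The wide intervals of P2ry14 and Gpr171 do not show that the groups are alike. The mouse numbers in the labels leave a gap between 3753 and 3759. They were split there into a lower run (wildtype 1, 2 and 3 and knockout 1) and a higher run (wildtype 4 and knockout 2, 3 and 4). The labels do not name these runs as batches. Run and genotype are partly confounded. Within the lower run the knockout minus wildtype difference was -0.10 for P2ry12, -0.33 for P2ry13, -1.18 for P2ry14 and -0.55 for Gpr171. Within the higher run it was 0.01, -0.21, -0.43 and -0.59. Each of these sets 1 mouse against 3, knockout 1 in the lower run and wildtype 4 in the higher. With the run as a block the fitted difference was -0.05, -0.27, -0.81 and -0.57 in the same order, so P2ry12 and P2ry13 turned sign, and none passed the threshold.

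**Figure D2:**
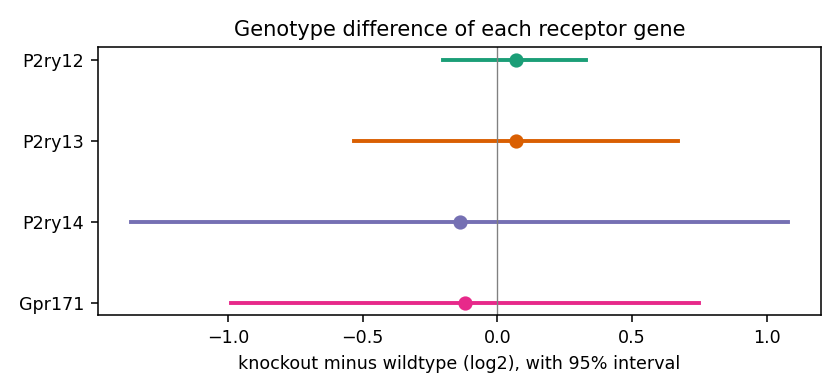
Knockout minus wildtype difference of each gene (log2, horizontal axis; points) with its 95% interval from limma (bars), 4 mice per group. All 4 intervals include 0, and that of P2ry14 runs from -1.36 to 1.08.

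P2ry12 and P2ry13 were then set beside other microglial genes, since a change in the microglial content of the tissue would move all of them. A list of 32 microglial genes that holds none of the nested receptors had 30 measured members, and its score is the mean of their centred log2 levels. The score was 0.08, -0.01, -0.0029 and 0.01 in the knockout mice and -0.02, -0.06, 0.01 and -0.02 in the wildtype mice. Knockout 1 was highest and the others lay within a narrow band. The genotypes differed by 0.04 (0.02 ± 0.0422 in knockout, -0.02 ± 0.029 in wildtype; exact two-sided permutation p = 0.171 over 70 assignments, of which the smallest possible is 0.0286).

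No relation of the 4 receptor genes with this score was detected over the 8 mice. For P2ry12, r was -0.22 (exact permutation p = 0.534, Benjamini-Hochberg adjusted over 4 relations 0.537), and rho was -0.24 (exact p = 0.582, adjusted 0.916). For P2ry13, r was -0.26 (exact p = 0.537, adjusted 0.537) and rho -0.05 (exact p = 0.916, adjusted 0.916). For P2ry14, r was -0.46 (exact p = 0.307, adjusted 0.537) and rho -0.07 (exact p = 0.872, adjusted 0.916). For Gpr171, r was -0.41 (exact p = 0.327, adjusted 0.537) and rho -0.33 (exact p = 0.428, adjusted 0.916). Without knockout 1 and wildtype 2, the mice farthest from the median score, r was 0.40, 0.43, 0.45 and 0.30 in the same order, so the negative sign rests on those mice. Each run of mouse numbers holds 4 arrays, too few for a correlation of its own.

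Single microglial genes went both ways beside P2ry12, 14 of the 30 with a positive and 16 with a negative r and a median of -0.09. The median r of all probe sets with P2ry12 was 0.01, so this near-even split is no result about microglial genes. The microglial transcripts Cx3cr1, the fractalkine receptor, Tmem119 and Siglech had r with P2ry12 of -0.23, -0.14 and -0.12 over the 8 mice. Csf1r, the receptor for the growth factor that microglia need to survive, had r of -0.77. Of the subunits of complement C1q, C1qa had r of -0.73, C1qb -0.34 and C1qc 0.81. Laptm5, which encodes a lysosomal membrane protein of blood-lineage cells, had 0.78, and Trem2, a lipid-sensing receptor gene, 0.37. Aif1, which encodes the microglial stain Iba1, had r of -0.07. None of the 30 genes passed the test for genotype, with 17 higher and 13 lower and a median difference of 0.03 beside -0.0025 for all probe sets. The smallest p belonged to Cd53 (difference 0.20), Ly86 (0.50), Ctss (0.33) and Olfml3 (0.15), each with a limma adjusted p of 0.997.

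Taking the microglia score out left the relation among the nested genes in place. The score had r of only -0.46 to -0.22 with the genes, so its removal could change little. The step therefore does not set microglial signal apart from other signal. With each gene regressed on the score, r between the residuals was 0.76 for P2ry12 with P2ry13 and 0.99 for P2ry13 with P2ry14. Subtracting the score from each gene left genotype differences of 0.03 for P2ry12, 0.03 for P2ry13, -0.18 for P2ry14 and -0.16 for Gpr171.

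A pattern shared by the arrays as a whole moved with the receptor genes far more closely. The first principal component of all probe sets held 44.2% of the variance. Wildtype 1 scored 32.0 on it and knockout 1 scored 14.9, while the other arrays lay between -15.9 and 0.813. Wildtype 1 and knockout 1 also had the widest distributions, with interquartile ranges of 2.42 and 2.3 against 2.09 to 2.21 elsewhere. Over the 8 mice, r with this component was -0.98 for P2ry13, -0.95 for P2ry14, -0.94 for Gpr171 and -0.78 for P2ry12. An r of -0.9 or lower was found for 3 of the 4 genes and for 2.63% of all probe sets, and 10 probe sets were as low as P2ry13. Over the other 6 mice, r was -0.94 for P2ry13, -0.82 for P2ry14, -0.72 for Gpr171 and -0.72 for P2ry12.

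With the component regressed out of every gene, P2ry12 no longer moved with its neighbours. Its r fell to 0.02 with P2ry13, 0.14 with P2ry14 and 0.02 with Gpr171. The pair P2ry14 and Gpr171 kept r of 0.73 and P2ry13 and P2ry14 kept 0.64, while P2ry13 with Gpr171 had 0.25. The component was computed on the same arrays and includes these genes, and its source was not tested.

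**Figure D3:**
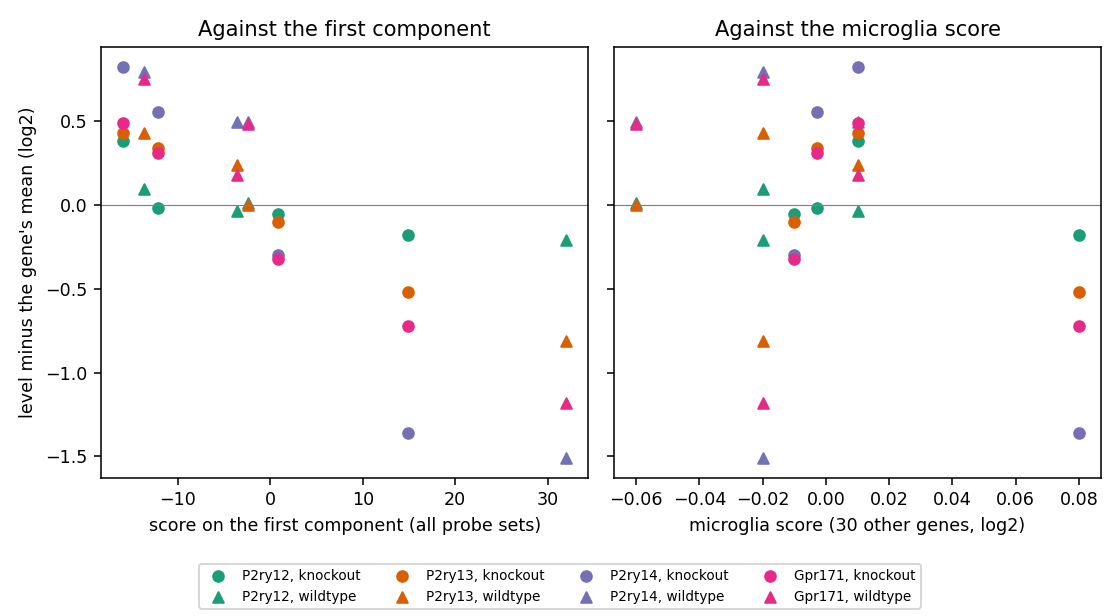
Level of each receptor gene minus its mean over the 8 mice (log2, vertical axes) against the array's score on the first component (left) and against the microglia score of 30 other genes (log2, right); circles are knockout and triangles wildtype mice. The levels fall from left to right against the component, with r from -0.98 to -0.78, and follow no such course against the microglia score, with r from -0.46 to -0.22.

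The named genes on either side of Med12l varied less than those inside it. By gene order, Erich6, Siah2 and Clrn1 are the nearest named genes before Med12l, and Igsf10, Gm4856 and Gm5709 the next after its start that lie outside it. Their levels spanned 0.13 to 0.33 on the log2 scale over the 8 mice, against 0.59 to 2.33 for the 4 genes inside. Apart from Siah2, at 8.10 to 8.41, these neighbours read low, between 5.05 and 7.10, and level was not matched. Their r with P2ry14 was 0.43 for Erich6, -0.40 for Siah2, which encodes a ubiquitin ligase, 0.47 for Clrn1, 0.73 for Igsf10, 0.58 for Gm4856 and -0.71 for Gm5709. Without the 2 arrays that stand apart, r for Igsf10 was 0.02. Their genotype differences lay between -0.07 and -0.03, each with a limma adjusted p of 0.997. No other gene that the gene table places inside Med12l has a named probe set here.

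Position was then set beside the spread over mice for related receptors. Of 22 measured P2Y receptors and relatives, the 4 inside Med12l and 4 others lie inside another protein-coding gene, and 14 do not. The 14 spanned 0.18 to 0.53 over the mice, with r against P2ry14 between -0.51 and 0.56. They also read lower. Their group means ran from 5.34 (P2ry10, knockout) to 7.48 (P2ry1, wildtype). Those of the nested receptors other than Gpr34 ran from 7.33 (Gpr183, knockout) to 9.64 (Lpar6, knockout). Level was not matched, so position and level cannot be told apart here. Lpar6, a receptor for lysophosphatidic acid that lies inside Rb1, spanned 2.58 (5.98-fold), with r of 0.98 with P2ry14 and -0.99 with the first component. Gpr183, the receptor for oxysterols that position B cells, spanned 1.41, and Gpr18 spanned 1.31. Both lie inside Ubac2, and their r with P2ry14 was 0.95 and 0.94.

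Gpr34 went the other way. This microglial receptor for lysophosphatidylserine lies inside Cask, yet it spanned 0.17, the least of the 22, with r of -0.32 with P2ry14 and 0.10 with the component. Its level was low too, with means of 6.36 in knockout and 6.32 in wildtype mice. Its r with P2ry12, the other receptor of this group used as a microglial marker, was 0.09. Among the P2Y receptors outside Med12l, P2ry1 had a genotype difference of -0.14, P2ry6 of 0.07, P2ry10b of 0.05, P2ry10 of -0.01, P2ry2 of 0.01 and P2ry4 of -0.0025, and none passed the test. Over the list of 9 P2Y receptors, those inside Med12l included, 5 were higher and 4 lower with a median of 0.01. Of 12 measured relatives, Gpr34 among them, which is on the microglia list too, none passed, with 7 higher, 5 lower and a median of 0.03.

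**Figure D4:**
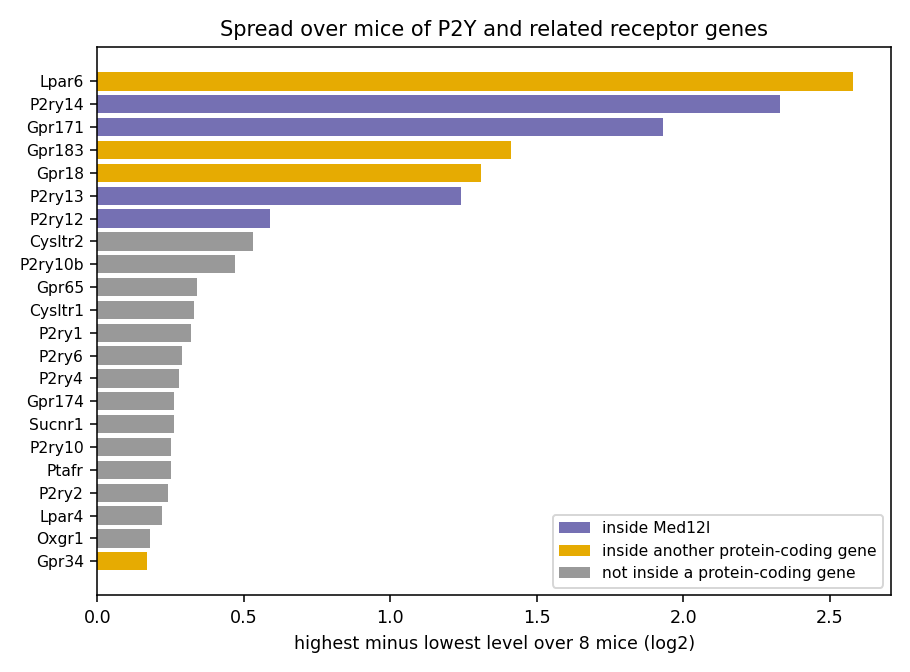
Range over the 8 mice (highest minus lowest log2 level, horizontal axis) of the 22 measured P2Y and related receptor genes; purple bars lie inside Med12l, yellow bars inside another protein-coding gene and grey bars in neither. The 7 longest bars are nested genes, from 2.58 for Lpar6 to 0.59 for P2ry12, and the shortest, Gpr34 at 0.17, is nested too.

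Genes nested in other hosts were then counted, a comparison added after the values of these receptors had been seen. Leaving the 4 receptors out, 350 measured genes lie wholly inside another protein-coding gene and 18105 do not. Of the nested genes, 38 (10.9%) had an r of -0.9 or lower with the first component, against 405 (2.24%) of the others. At 0.9 or higher the shares were 0.571% and 3.61%. The median r was -0.37 for nested genes and -0.03 for the others, and -0.24 and -0.01 over the 6 other arrays. A standard deviation at least that of P2ry13 was found in 21 nested genes (6%) and 68 of the others (0.376%). These shares are a description across genes, which are not independent replicates, and levels, probe number and transcript length were not matched.

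The 21 variable nested genes ran with P2ry14, at r between 0.75 and 0.99, and their hosts varied less. They were picked for their spread, so this is a description. Of the 21, 14 had an r of -0.9 or lower with the component, as had 11 of the 68 variable genes that are not nested, of which 5 had an r of 0.9 or higher. The 16 measured hosts spanned 0.18 to 0.74, and 11 of them had a positive r with the first component, where every one of the 21 genes had a negative one. A positive r is common, since the median over all genes that are not nested was -0.03. The count of hosts is therefore no result about hosts. Htr2b, a serotonin receptor gene, spanned 1.71 inside Psmd1, a proteasome subunit gene that spanned 0.21, and their r was -0.47 (-0.12 over the other 6 arrays). Lrtm1 spanned 1.69 inside the calcium channel subunit gene Cacna2d3, with r of -0.68 between them (-0.19 over the other 6), and Fndc9 spanned 1.90 inside Cyfip2, with r of -0.65 (-0.65). F2rl2, a thrombin receptor gene inside Iqgap2, had r of 0.82 with its host (0.36). Over the 17 measured pairs, r of gene with host was negative in 11 and positive in 6, both over the 8 arrays and over the other 6. The pairs behind these totals were not the same. Over the other 6, Evi2b with Nf1 turned from 0.27 to -0.01 and Uchl4 with Map2k1 from 0.02 to -0.18. Ube2d2b with Evi5 turned from -0.46 to 0.36 and Gpr18 with Ubac2 from -0.47 to 0.21. The signs for other nested genes and their hosts were not counted. The signs of gene with host are not independent of the signs with the component. For Htr2b, Lrtm1 and F2rl2 the size of r thus rests largely on the 2 arrays that stand apart. In 16 of the 22 gene and host pairs the strands were opposite, in 1 they were the same, and for the rest the table used gives no strand for one of them. Strands of the other nested genes were not counted, so this is no property of the variable ones.

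**Figure D5:**
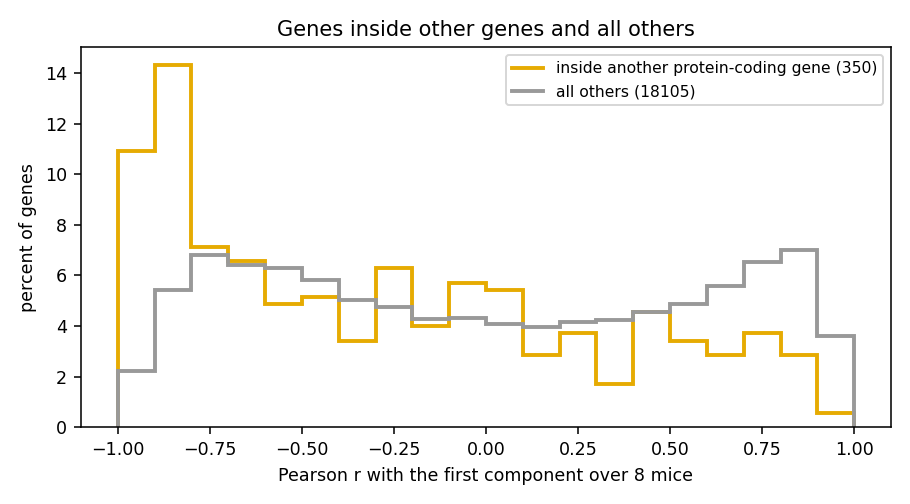
Share of genes (percent, vertical axis) by Pearson r with the first component over 8 mice (horizontal axis, bins of 0.1) for 350 genes inside another protein-coding gene (yellow) and 18105 others (grey), the 4 receptors left out. The yellow line stands above the grey one below -0.8, with 10.9% against 2.24% at -0.9 or lower.

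The genes whose pattern was most like each receptor were found by Pearson r over the 8 mice among named probe sets with a mean above the median. For P2ry12 they were Nfib (0.983), Zfp800 (0.978), Fmnl2 (0.976), Phf21a (0.973) and Stag1 (0.971). None of these is on the microglia list used here. That list holds only 30 measured genes among 20985 probe sets, and its dimmer genes fell below the level cut. The absence is therefore no result about microglia. For P2ry13 they were Lpar6 (0.978), Tent4b (0.977), Zbtb5 (0.977), Actr3 (0.975) and Ankrd37 (0.975). For P2ry14 they were Gm13331 (0.991), 4930447A16Rik (0.989), Rbm4b (0.987), Actr3 (0.986) and Zbtb5 (0.986), and for Gpr171 4930447A16Rik (0.992), EG545989 (0.986), F2rl2 (0.986), Tnfrsf18 (0.984) and Hipk4 (0.982). An r above 0.9 was reached by 140 probe sets for P2ry12, 471 for P2ry13, 419 for P2ry14 and 455 for Gpr171, so the 5 named are the top of long lists. Lpar6, 4930447A16Rik, Rbm4b and F2rl2 are themselves nested genes.

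The pathways around the receptors did not change with genotype by the limma test. Of 7 P2X receptors, the ATP-gated channels, none passed, with 4 higher and 3 lower and a median difference of 0.01. Of 20 measured genes of nucleotide and adenosine handling, none passed, with 6 higher and 14 lower and a median of -0.03. The smallest p was that of Nt5e, the ecto-nucleotidase that makes adenosine from AMP (-0.25, SE 0.0929). Pcsk1n, which encodes proSAAS, the source of the Gpr171 ligand, differed by -0.02 with r of -0.01 with P2ry14. Of 17 genes of inhibitory G protein signalling, none passed, with 7 higher and 10 lower and a median of -0.01, and Adcy1, an adenylyl cyclase, had the smallest p (-0.29, SE 0.157). The score of this list ran against P2ry14, with r of -0.90 over 8 mice and -0.57 over the other 6, and its r with the first component was 0.97.

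The partners of the unmeasured host were read as well. Of 6 measured members of the Mediator kinase module, none passed, with 4 higher, 2 lower and a median of 0.04. Ccnc, the cyclin of the module, had the smallest p, with 9.64 ± 0.153 in knockout and 9.23 ± 0.356 in wildtype mice and a difference of 0.41 (SE 0.158, limma adjusted p 0.997). Med12, the closest relative of the host, differed by -0.05 with r of 0.32 with P2ry14. Cdk8, the kinase, differed by 0.06 and Cdk19, its paralogue, by 0.03, with r of 0.87 and -0.67 with P2ry14. Med13 differed by 0.06 and Med13l by -0.07, with r of 0.83 and -0.51. Of 26 core Mediator genes, none passed, with 11 higher and 15 lower and a median of -0.02.

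Markers of other cells gave these values beside the receptor genes. Neuronal and glial genes were read in all mice, Camk2a between 12.73 and 13.12 and Slc1a2 between 11.78 and 12.20. The r of each cell type score with P2ry14, over 8 mice and then over the other 6, was -0.93 and -0.78 for neurons, -0.83 and -0.70 for oligodendrocyte precursors and -0.72 and -0.84 for astrocytes. It was -0.51 and -0.40 for oligodendrocytes and -0.49 and -0.55 for endothelial and mural cells. It was 0.81 and 0.47 for monocytes and neutrophils, 0.74 and 0.68 for erythroid cells, 0.68 and 0.14 for T and NK lymphocytes, and 0.68 and 0.20 for border macrophages. The monocyte and neutrophil genes read only 5.45 to 6.82 and the T and NK genes 5.76 to 7.60, which could not be told from background. Olfactory and vomeronasal receptor genes, with little or no brain expression, had 0.75 and 0.27. These immune scores therefore do not show cell content. For choroid plexus, whose score reached 0.87 in wildtype 2 and lay at or below 0.04 elsewhere, it was -0.00017 and 0.14. The scores are means, and single genes could go the other way. Over the 8 mice the astrocyte gene Gjb6 had r of 0.89 with P2ry14 and the neuronal gene Rbfox3 0.62.

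Beside P2ry12 the same scores ranked differently. Its r, over 8 mice and then over the other 6, was 0.94 and 0.96 with the erythroid score of 3 measured genes and -0.92 and -0.90 with the astrocyte score, both larger in size than its -0.78 and -0.72 with the first component. Without knockout 4, the mouse with the highest P2ry12 level and the highest erythroid score, these were 0.81 and -0.82. Of the 3 erythroid genes, Hbb-b1, a globin gene, had r of 0.91 with P2ry12, Alas2 0.82 and Slc4a1 0.07. Astrocyte genes went both ways. Gjb6 had 0.71, Gja1 0.65 and Aqp4 0.26, while the rest were negative, down to -0.95 for Aldh1l1. The r of P2ry12 was -0.80 and -0.70 with oligodendrocyte precursors, -0.79 and -0.63 with neurons, and 0.67 and 0.37 with monocytes and neutrophils. The limit on dim immune genes holds here too. It was -0.55 and -0.53 with endothelial and mural cells, -0.42 and -0.23 with oligodendrocytes, 0.29 and -0.30 with T and NK lymphocytes, 0.09 and -0.61 with border macrophages, and -0.17 and -0.18 with choroid plexus.

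Genes with little or no brain expression moved with the arrays too. The mean score of 1272 olfactory and vomeronasal receptor genes lay between -0.11 and 0.10, with r of 0.75 with P2ry14 (0.27 over the other 6 mice) and -0.85 with the first component. No gene of any of these lists passed the test for genotype, and the part that these cell types or the array-wide pattern play in the receptor levels was not tested.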

How the data were processed

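Total RNA from the hippocampus of 8 mice, 4 knockout and 4 wildtype, was read on 1 array each. The deposited values are log2 levels, 1 per probe set and array, made by the authors with RMA, limma and R 2.9, per the submitters' processing notes. RMA subtracts background, equalises array distributions and summarises probes, with settings not stated in the sources used here. The interquartile ranges still differ between arrays. Of 20985 probe sets, 19921 have 1 gene name, 0 have several and 1064 have none in the platform annotation. Array number limits the precision, with a median standard error of 0.0922 for a difference.

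All probe sets entered one fit with limma 3.58.1 in R 4.3.3 (lmFit, eBayes, genotype as factor, Benjamini-Hochberg over all, threshold 0.05), tested on simulated data. Correlations, exact permutation tests and list scores (mean of log2 levels centred on each gene's mean) used Python 3.11.15 with scipy 1.17.1. Of 221 listed gene names, 205 were measured. The members, gene lists, tests and alternatives were chosen with earlier results of these data known. Genes named by rule were the members, 3 genes on each side of Med12l, the 5 most similar genes per member, list genes with the smallest p and fixed examples. The variable nested genes other than the members, and Lpar6, Gpr183 and Gpr18 as nested genes, were named after their values were seen. Replicate numbers follow record order and pair nothing. Gene positions came from a GRCm38.p6 table, and no source used here names the build of the probe sets.

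Alternatives were an intensity trend, robust eBayes, array weights, repeated quantile normalization, median centring, the dimmest 25% or 50% left out, the mouse number run as a block, the microglia score as a covariate, and each mouse or both arrays that stand apart left out. The first component as a covariate, its removal from pairs, and the count over all nested genes were added after seeing the data. The host Med12l was not analysed here.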

Additional observations from a re-analysis of the deposited data

Results flagged for a closer look

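P2ry14 in wildtype 1, at 6.92, lay far below the other 3 wildtype mice, its gap to the nearest being 0.87 of the group's whole range. Gpr171, P2ry13 and P2ry12 were also lowest among wildtype mice in this animal, which scored highest of all on the first component. The microglia score of knockout 1, at 0.08, lay far above the other 3 knockout mice, with a gap of 0.844 of the range. Chance alone marks about 1 in 20 groups this way.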

How the results depend on the processing

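No member passed the threshold under any of the alternatives run, but the sign of the genotype differences was not stable. P2ry12 turned to -0.0018 with array weights and -0.05 with the mouse number run as a block. P2ry13 turned to -0.13, -0.27 and, once the first component was a covariate, -0.10. With the microglia score as a covariate P2ry14 turned to 0.41 and Gpr171 to 0.22. With 1 mouse left out, the difference ranged from -0.05 to 0.14 for P2ry12 (turned without knockout 4), -0.19 to 0.26 for P2ry13 (without knockout 3, knockout 4 or wildtype 1), -0.66 to 0.29 for P2ry14 (without knockout 1 or wildtype 2, 3 or 4) and -0.53 to 0.11 for Gpr171 (without knockout 1, wildtype 2 or wildtype 4). With the first component as a covariate, P2ry14 differed by -0.50 (SE 0.109, limma adjusted p 0.61) and Gpr171 by -0.37 (SE 0.0845, adjusted p 0.67).

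The mean r of the 6 pairs was 0.86, against 0.95 as Spearman's rho and 0.30 with the first component removed, and 0.81 to 0.95 with 1 mouse left out. The r of P2ry12 with the microglia score turned to 0.12 under repeated quantile normalization and 0.21 without both arrays that stand apart, that of P2ry13 to 0.10 and 0.45, and that of P2ry14 to 0.02 without both arrays. With 1 mouse left out these ranged from -0.53 to 0.21, -0.53 to 0.27 and -0.73 to 0.07, each turning without knockout 1, and for Gpr171 from -0.74 to -0.09. The microglia score differed between genotypes by 0.02 to 0.05 with 1 mouse left out and by 0.02 to 0.06 under the other settings. Relative to it, with 1 mouse left out, the differences ranged from -0.09 to 0.12, -0.23 to 0.24, -0.70 to 0.27 and -0.57 to 0.08 for P2ry12, P2ry13, P2ry14 and Gpr171. The number of probe sets past the limma threshold was 1, against 2 with array weights, 2 under repeated quantile normalization, 2 with the first component and 0 with the microglia score as a covariate. With that score 626 probe sets had an unadjusted limma p under 0.05, against 664 in the main fit. Each of these is below a share of 0.05 of all probe sets. Of 293 alternative values, 26 were counted as reversed in sign and 25 as moved. Turns of sign in the differences relative to the microglia score are not in that count. The cause was not tested. No paired analysis was possible because the replicate numbers follow record order only. Gpr171 lies in the dimmer 50% of probe sets and was not fitted where those were left out.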
